A study of Oryza sativa with 12 samples.

Results

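The response of rice seedlings to a short osmotic stress was compared over all 6 stressed and all 6 unstressed libraries of the study, taken as 6 pairs. Seedlings of Oryza sativa were 21 days old. They stood for 6 h in reverse-osmosis water (control) or in 20% polyethylene glycol 6000 (PEG), a polymer that withholds water from roots (drought in what follows). IR64, which the submitters describe as drought sensitive, and N22, which they describe as tolerant, each gave 3 libraries per treatment, numbered 1 to 3. A pair is the drought and the control library of 1 cultivar and 1 number, and all 12 libraries of the study enter the comparison. Roots in PEG lose water within hours, so these values describe an early osmotic shock in solution and not a drying soil. The labels give no organ. Transcripts of root (Lsi1, 125 to 321 FPKM over the 12 libraries) and of green tissue (RBCS2, 871 to 7705 FPKM) were both present.

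Water deficit raises abscisic acid (ABA), the hormone that closes stomata. ABA receptors then block the clade A PP2C phosphatases, which frees SnRK2 kinases to phosphorylate transcription factors of the bZIP family. Genes for protective proteins are switched on, and photosynthesis, cell division and wall growth are slowed. These large responses are well known, whereas genes that move by less than 2-fold usually drop out of lists with a fold threshold. The question asked here was which genes moved by less than that, but in the same direction in every pair.

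The deposited values are FPKM, fragments scaled by transcript length and library size. Of 39718 rows, 25730 were listed in all 12 libraries and were tested. Changes are drought minus control on the log2(FPKM + 1) scale, which understates the change of low genes, and are means over 6 pairs with their standard error (SE). Genes called at a limma Benjamini-Hochberg adjusted p of at most 0.05 are said to have risen or fallen, with no fold limit. A consistent moderate change is such a call with 6 of 6 pairs in 1 direction and a mean below 1 on the log2 scale (2-fold). For a single gene, the exact two-sided sign-flip test over 6 pairs gives a p of 0.03125 whenever all 6 pairs lie on 1 side, which is the smallest it can give. The test takes the 6 pairs as separate, and for genes chosen for 6 of 6 pairs its result is fixed beforehand. In bulk seedlings, fewer cells of a type and less RNA per cell cannot be told apart.

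Most calls of the comparison were small changes that went the same way in every pair. Over all rows, 13774 of 25730 were called (53.5%), of which 6653 rose (25.9%) and 7121 fell (27.7%). Changes of 1 or more on the log2 scale were fewer, 1223 rises (4.75%) and 1066 falls (4.14%). Consistent moderate changes made up 9648 rows (37.5%), 4550 higher (17.7%) and 5098 lower (19.8%), which is 70.0% of all calls. Their median size was 0.44 for rises and 0.47 for falls. The smallest that passed were 0.089 and 0.093. A further 880 rises and 957 falls below 1 were called without all 6 pairs moving one way. In 5629 of all 25730 rows the 6 drought values did not overlap the 6 control values. Of these 5629 rows, 3822 were among the 9648, which the rule had already chosen for 6 of 6 pairs one way.

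Moderate changes were more frequent among well expressed rows. Median FPKM was 12.4 in rows with a consistent moderate change, 18.4 in rows called at 1 or more and 4.65 in rows that were not called. The share of rows with a consistent moderate change was 19.7% below 1 FPKM, 32.7% from 1 to 5, 40.4% from 5 to 20, 48.0% from 20 to 100 and 46.4% at 100 FPKM or more. The median SD of the 6 pair changes was 0.20 for moderate rows, 0.53 for rows called at 1 or more and 0.19 for rows that were not called. Because the scale adds 1 to each FPKM, part of the moderate class is larger on the linear scale. In 549 of the rises the ratio of mean FPKM, drought over control, was 2 or more, and 652 of the falls had the ratio of control over drought at 2 or more.

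The third pair of each cultivar changed least. In the direction of each row's mean, the median change of the moderate rows was 0.44, 0.48 and 0.31 in the IR64 pairs 1 to 3 and 0.53, 0.58 and 0.28 in the N22 pairs. Rows called at 1 or more had the same order, with 1.32, 1.497 and 1.02 in IR64 and 1.69, 1.89 and 0.82 in N22. Where fewer than 6 pairs enter, a moderate row needs only all pairs of that fit one way, a looser rule than 6 of 6. By that rule, the pairs numbered 1 and 2 alone called 5205 moderate rises and 5564 moderate falls. Same-numbered libraries of the 2 cultivars deviated from their group means together, so the 6 pairs are not fully separate. With the cultivars averaged within each number, which leaves 3 pairs, 4169 rows rose and 4629 fell, with 2984 moderate rises and 3584 moderate falls.

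**Figure D1:**
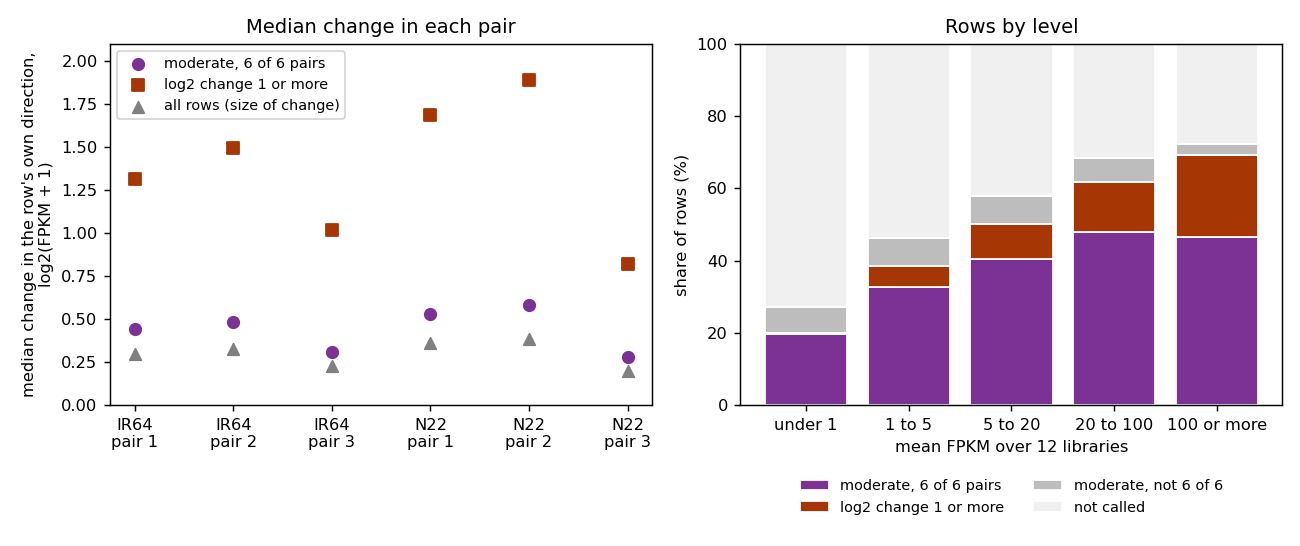
Left, median change on the log2(FPKM + 1) scale in each of the 6 pairs, in the direction of each row's own mean, for rows with a consistent moderate change (circles) and rows called at 1 or more (squares), with the median size of change over all rows (triangles). Pair 3 is lowest in both cultivars, at 0.31 and 0.28 for the moderate rows. Right, share of rows in each class by mean FPKM over the 12 libraries, where the moderate class grows from 19.7% below 1 FPKM to 48.0% at 20 to 100 FPKM.

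Genes of known function were read in 41 lists. Of 466 genes on them, 419 had a row of their own in all 12 libraries. Of the other 47, 40 shared a row with other loci or had no single row, and 7 were not listed in every library. Of the 419 tested, 152 rose and 158 fell. Consistent moderate changes were found in 153 (36.5%), close to the 37.5% of all rows, so the lists as a whole held no more of them than the transcriptome did. Single lists ranged from 0% to 75%, and no list was tested as a set. Counts of rises and falls in the lists that follow stand against 25.9% of all rows rising and 27.7% falling. Counts of consistent moderate rises and falls stand against 17.7% and 19.8% of all rows, and those of 1 or more against 4.75% and 4.14%. From each list with at least 4 tested members the 2 largest consistent moderate changes are given, or the most abundant member where there was none. Other members named to complete a count were chosen after their values were seen.

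**Figure D2:**
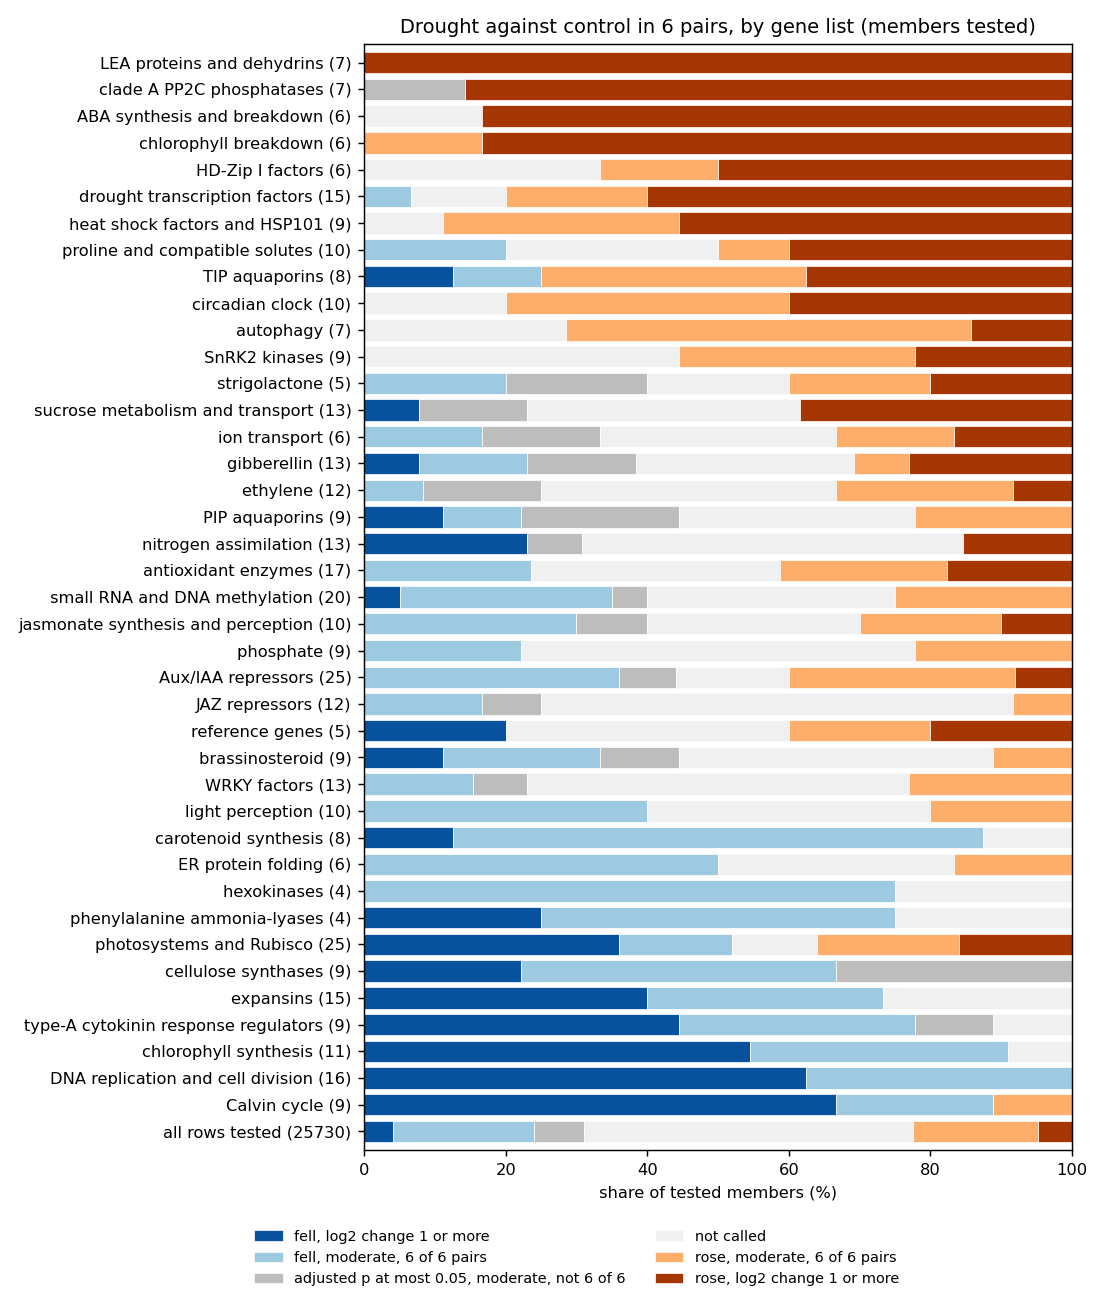
Share of tested members (horizontal axis, percent) of each gene list that fell by 1 or more on the log2 scale, fell moderately in 6 of 6 pairs, were called below 1 without 6 of 6 pairs (either direction), were not called, rose moderately in 6 of 6 pairs, or rose by 1 or more. Lists are ordered by median change with all 25730 rows at the bottom. LEA proteins are all in the strongest class of rises, whereas 6 of 8 carotenoid genes are moderate falls.

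Within ABA signalling, protective proteins and PP2C phosphatases rose strongly and several SnRK2 kinases moderately. LEA proteins and dehydrins, which protect drying cells, rose by 1 or more in all 7 genes tested, with a median change of 6.70. The most abundant, RAB16A (LOC_Os11g26790), stood at 0.339 to 7.55 FPKM in control and 172 to 3502 under drought. Of 7 clade A PP2C phosphatases 6 rose by 1 or more, the most abundant of them PP2C30 (LOC_Os03g16170) by 2.73 (SE 0.39). The exception was PP2C53, called at 0.20 without all pairs rising. Neither list held a consistent moderate change.

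Among 9 SnRK2 kinases, 5 rose and none fell, where 25.9% and 27.7% of all rows did. SAPK1 rose by 1.81, SAPK6 by 1.03 and 3 kinases moderately (33.3%, against 17.7% of all rows). SAPK3 (LOC_Os10g41490) stood at 29.3, 26.6 and 23.7 FPKM in the 3 IR64 control libraries and at 53.7, 55.3 and 41.4 under drought, and in N22 at 34.6, 32.4 and 30.6 and 57.4, 65.6 and 47.4. All 6 drought values were above all 6 controls, and the change was 0.83 (SE 0.067, limma adjusted p = 0.000338). Over all rows, 5629 of 25730 had groups that did not overlap. Genes given library by library were picked for the smallest p among consistent moderate changes, which already required 6 of 6 pairs one way. Separation of the groups, here and in the genes below, is partly a product of that choice and no separate support. SAPK10 (LOC_Os03g41460), one of the ABA-activated kinases, went from 11.3, 10.3 and 12.8 to 19.6, 17.02 and 18.8 FPKM in IR64 and from 7.35, 7.998 and 7.66 to 14.7, 13.99 and 13.2 in N22. It too was higher in every drought library than in any control, with a change of 0.72 (SE 0.064, adjusted p = 0.000395). SAPK9, of the same ABA-activated branch, rose by 0.32, and the remaining 4 kinases were not called, with changes from -0.03 to 0.31.

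Of 15 transcription factors linked to drought, 12 rose, 9 of them by 1 or more, and 1 fell. The moderate rises were bZIP46, NAC5 and ABI5. bZIP46 (LOC_Os06g10880), an activator of ABA-responsive genes, went from 7.54 ± 0.463 to 11.95 ± 2.15 FPKM (mean ± SD, n = 3) in IR64 and from 11.03 ± 0.838 to 25.01 ± 7.28 in N22, a change of 0.83 (SE 0.13). The single fall was DST (LOC_Os03g57240), a zinc finger factor whose loss is known to close stomata and raise drought tolerance in rice. It fell from 30.4–43.6 FPKM over the 6 controls to 13.3–34.3 under drought (ranges are given so, lowest to highest of 6 libraries), a change of -0.87 (SE 0.15, adjusted p = 0.00264), and the ranges overlapped. HOX6 (LOC_Os09g35910), a homeodomain leucine zipper factor, held 27.6, 24.7 and 24.9 FPKM in IR64 controls and 39.3, 47.2 and 46.9 under drought, and 23.8, 27.7 and 23.1 against 49.8, 55.9 and 35.9 in N22. The groups did not overlap, and its rise of 0.82 (SE 0.083) was the moderate one of its list, beside HOX12, HOX22 and HOX24 at 2.21 to 6.55.

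ABA synthesis and breakdown had no consistent moderate change, with 5 of 6 genes rising by 1 or more. The exception was ABA8ox1 (LOC_Os02g47470), an ABA hydroxylase and the most abundant of the list. Its drought values of 168, 40.1 and 335 FPKM in IR64 and 101, 77.9 and 133 in N22 spread to both sides of the controls, at 65.6 to 132. The change of 0.31 (SE 0.33) was not called (adjusted p = 0.457).

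**Figure D3:**
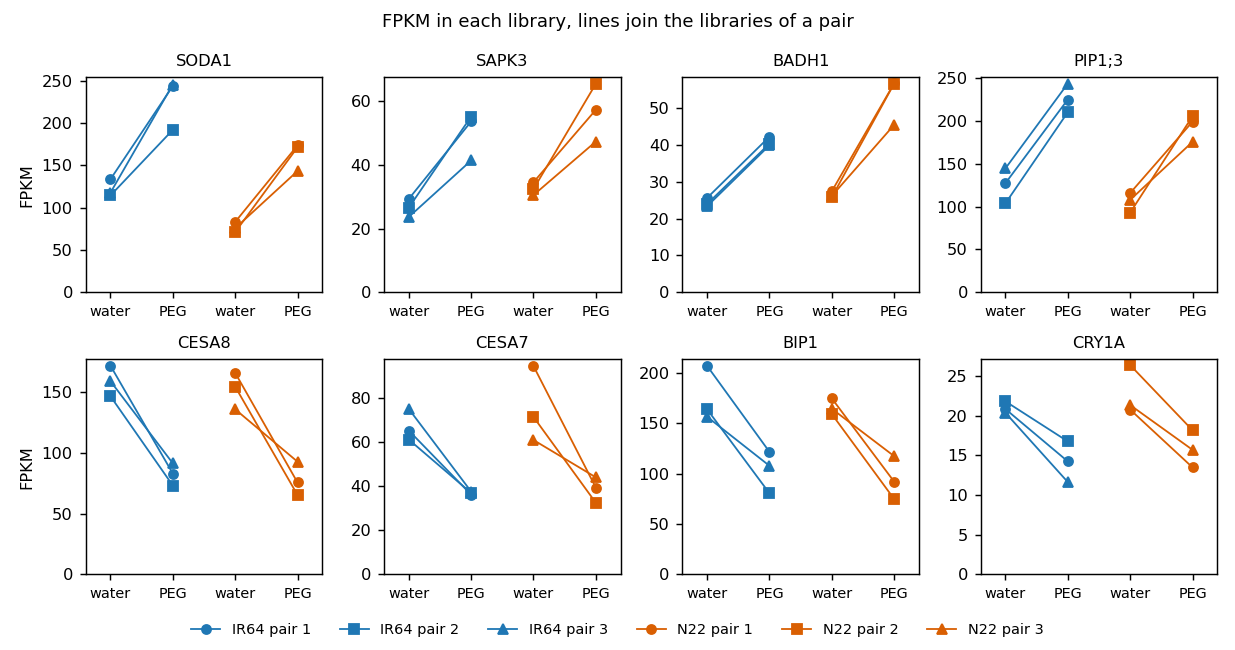
FPKM (vertical axes from 0) of 8 genes in each of the 12 libraries, with lines joining the water and PEG libraries of a pair, blue for IR64 and orange for N22. SODA1, SAPK3, BADH1 and PIP1;3 go up and CESA8, CESA7, BIP1 and CRY1A go down in all 6 pairs. SODA1 lies lower in N22 than in IR64 in both treatments, and its 6 drought values still lie above its 6 controls.

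Of 10 clock genes 8 rose and none fell in the harvest at 6 h, where 25.9% and 27.7% of all rows did. Consistent moderate rises made up 4 of the 10 (40%), against 17.7% of all rows. PRR1 (LOC_Os02g40510), the rice counterpart of the Arabidopsis evening gene TOC1, went from 24.7, 20.8 and 27.6 to 46.0, 32.97 and 48.1 FPKM in IR64 and from 25.3, 24.96 and 25.9 to 40.8, 36.8 and 36.2 in N22. Every drought value was above every control, with a change of 0.66 (SE 0.065, adjusted p = 0.000483). ELF3-2 (LOC_Os01g38530), a gene of the evening complex, rose by 0.57 (SE 0.089), and PRR37 and LUX rose by 0.56 and 0.41. The morning gene LHY and the evening complex gene ELF3-1, at 0.10, were not called. The hour of harvest is not given in the labels, and all libraries share the 6 h.

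Of 10 light perception genes 2 rose and 4 fell, where 25.9% and 27.7% of all rows did, and all 6 changes were consistent and moderate. CRY1A (LOC_Os02g36380), a blue-light receptor, went from 20.9, 21.8 and 20.4 to 14.3, 16.8 and 11.6 FPKM in IR64 and from 20.8, 26.4 and 21.4 to 13.5, 18.2 and 15.7 in N22. It was lower under drought than in any control, with a change of -0.53 (SE 0.064, adjusted p = 0.000791). Its paralogue CRY1B fell by 0.26, and COP1 and DET1, repressors of light responses, also fell, with changes of -0.37 and -0.25. CRY2 (LOC_Os02g41550), the other blue-light receptor, rose instead, from 12–18.2 to 18.5–24.7 FPKM, by 0.47 (SE 0.083). PHYC rose by 0.29, whereas PHYB, at -0.01, was not called.

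In auxin signalling 17 of 25 Aux/IAA repressors (68.0%, against 37.5% of all rows) had a consistent moderate change, 8 up and 9 down. Aux/IAA proteins are short-lived repressors of auxin responses and many of their genes are themselves induced by auxin. IAA6 (LOC_Os01g53880) rose from 15.01–25.5 to 30.2–53.96 FPKM, by 0.92 (SE 0.11), without overlap. IAA24 (LOC_Os07g08460) rose by 0.84 (SE 0.16), in IR64 by 0.55 and in N22 by 1.12. The largest moderate falls were IAA14 at -0.82 and IAA7 at -0.78, and the list's median change was -0.06. Members of this family share sequence, and how the authors' counting split reads between them is not stated.

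Cytokinin response regulators of type A, which cytokinin induces, went down, 8 of 9 falling and none rising. RR4 (LOC_Os01g72330) fell from 33.2–41.1 to 15.6–26.4 FPKM, a change of -0.83 (SE 0.11). RR11 (LOC_Os02g42060), a low-level member at 2.48 to 4.21 FPKM in control, fell by 0.95 (SE 0.16), and with a pseudocount of 0.1 its change was -1.42. In gibberellin signalling, the F-box protein GID2 (LOC_Os02g36974), which removes the growth repressor SLR1, held 204, 208 and 232 FPKM in IR64 controls and 129, 112 and 145 under drought. The N22 values were 218, 215 and 210.3 and 112, 108 and 166. No drought value reached a control, and the change was -0.75 (SE 0.094, adjusted p = 0.000854). CPS1 (LOC_Os02g17780), the first enzyme of gibberellin synthesis, fell by 0.78 (SE 0.11), while the receptor GID1 rose by 1.26 and SLR1, at 0.05, was not called. Mean FPKM of CPS1 was 4.52 in control and 2.22 under drought, just beyond 2-fold on the linear scale. The gibberellin list as a whole was split, 5 rising and 4 falling of 13.

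Of 9 brassinosteroid genes, 4 fell and 1 rose, where 27.7% and 25.9% of all rows did. The rise and 2 of the falls were consistent and moderate (33.3%, against 37.5% of all rows). DLT (LOC_Os06g03710), a positive regulator of the pathway, fell from 4.32–6.12 to 1.16–3.59 FPKM, a change of -0.91 (SE 0.15), and the co-receptor BAK1 (LOC_Os08g07760) fell by 0.39 (SE 0.063). Mean FPKM of DLT was 5.04 in control and 2.33 under drought, beyond 2-fold on the linear scale. The receptor gene BRI1 was not called at 0.13. Among 5 strigolactone genes, D3 (LOC_Os06g06050), the F-box protein of the pathway, rose from 6.55–10.2 to 9.54–28.01 FPKM, by 0.90 (SE 0.15). Its mean FPKM, 8.39 in control and 17.3 under drought, also differed by more than 2-fold. D10 (LOC_Os01g54270), a cleavage enzyme of strigolactone synthesis, fell by 0.32 (SE 0.10, adjusted p = 0.0308) at 0.228 to 1.19 FPKM in control. That call was lost without the first or the second N22 pair (adjusted p = 0.0841 and 0.0661) and with the cultivars averaged within each number (0.0953), and with a pseudocount of 0.1 the change of D10 was -0.998.

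Ethylene and jasmonate genes were divided. EIL2 (LOC_Os07g48630), a transcription factor of the ethylene pathway, went from 76.1, 118 and 119.8 to 171, 187 and 191 FPKM in IR64 and from 94.2, 148 and 100.3 to 240.2, 251 and 179 in N22. The 6 drought values lay above the 6 controls, with a change of 0.90 (SE 0.11, adjusted p = 0.000716). ACO1 (LOC_Os09g27820), which makes ethylene from its precursor, rose by 0.77 (SE 0.18), by 1.18 in IR64 and 0.37 in N22. This difference between the cultivars was not called (interaction, limma adjusted p = 0.516). Of 12 ethylene genes 5 rose, 2 fell and 5 were not called, where 25.9% of all rows rose and 27.7% fell.

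In jasmonate synthesis the allene oxide enzymes AOS1 (LOC_Os03g55800) and AOC (LOC_Os03g32314) fell, with changes of -0.93 (SE 0.24) and -0.60 (SE 0.12). The third pair of AOS1 hardly moved, at 93.8 against 87.3 FPKM in IR64 and 52.3 against 47.7 in N22, while the first pair of IR64 went from 43.1 to 22.6. The receptors COI1A and COI1B rose by 0.52 and 0.56. Of 12 JAZ repressors only 4 were called, among them JAZ11 (LOC_Os03g08320) at 0.78 (SE 0.12) and JAZ7 (LOC_Os07g42370), the latter falling from 322–508 to 177–356 FPKM, a change of -0.76 (SE 0.14). WRKY factors, many of them regulators of defence, were called in 6 of 13, 3 rising and 3 falling, where 53.5% of all rows were called. Consistent moderate changes were found in 5 of the 13 (38.5%, against 37.5% of all rows), 3 up and 2 down. WRKY45 (LOC_Os05g25770) fell by 0.89 (SE 0.21) and WRKY28 (LOC_Os06g44010) fell by 0.97 (SE 0.24). With the cultivars averaged within each number, the calls of AOS1 (adjusted p = 0.0782), WRKY45 (0.0531) and WRKY28 (0.0692) were lost.

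Photosynthesis genes fell among the enzymes of carbon fixation and in several photosystem subunits, while several antenna genes rose. Of 25 photosystem and Rubisco genes, 13 fell, 9 of them by 1 or more, and 9 rose, 4 of them by 1 or more. PSAF (LOC_Os03g56670), a subunit of photosystem I, stood at 397 to 444 FPKM in control and 184 to 322 under drought, without overlap and with a change of -0.85 (SE 0.12). PSAD, PSBQ and PSBO, further photosystem subunits, fell, with changes of -0.71, -0.66 and -0.62. LHCA4 (LOC_Os08g33820), a light-harvesting protein of photosystem I, rose from 67.5 ± 21.2 to 114 ± 38.4 FPKM in IR64 and from 44.7 ± 11.6 to 74.2 ± 6.38 in N22 (mean ± SD, n = 3), by 0.75 (SE 0.13). LHCA1, LHCA2 and LHCB3 rose by 0.46, 0.43 and 0.54. LHCB5 and LHCB6, at -0.06 and -0.12, were not called.

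In the Calvin cycle 8 of 9 genes fell, 6 by 1 or more. The moderate falls were chloroplast triosephosphate isomerase (LOC_Os09g36450), from 237–276 to 96.7–179 FPKM or -0.99 (SE 0.13), and chloroplast aldolase (LOC_Os11g07020), from 612–992 to 346–532 FPKM or -0.66 (SE 0.14). CP12, a small protein that holds 2 of the cycle's enzymes inactive in the dark, rose by 0.54 in 6 of 6 pairs. Chlorophyll synthesis fell in 10 of 11 genes with none rising. PORB (LOC_Os10g35370), the light-dependent protochlorophyllide reductase, fell, with changes of -0.47 in IR64, -1.04 in N22 and -0.76 together (SE 0.17). DVR (LOC_Os03g22780), the divinyl reductase, fell from 17.7–24.6 to 9.79–15.8 FPKM, a change of -0.70 (SE 0.12). Chlorophyll breakdown went up in 6 of 6 genes, 5 by 1 or more, and the moderate rise was NOL (LOC_Os03g45194), a chlorophyll b reductase, at 0.77 (SE 0.10).

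Carotenoid synthesis fell in 7 of 8 genes with none rising, and 6 of the falls were consistent and moderate, where 19.8% of all rows had such a fall. Carotenoids shield the photosystems and are also the source of ABA. PSY2 (LOC_Os12g43130), a phytoene synthase at the entry of the pathway, fell from 12.2–20.6 to 5.93–11.8 FPKM, a change of -0.63 (SE 0.12). LCYB (LOC_Os02g09750), the lycopene beta-cyclase, fell by 0.47 (SE 0.10). The remaining moderate falls were ZDS, LCYE, PSY1 and CRTISO, between -0.41 and -0.23, and the list's median change was -0.35 against -0.01 for all rows. Downstream, the ABA enzymes ZEP1, NCED3 and NCED4 rose by 1.60 to 3.59.

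Growth genes fell. DNA replication and cell division fell in all 16 genes, 10 by 1 or more and 6 moderately, with a median of -1.26. The share with a consistent moderate change, 37.5%, was the same as over all rows. RNRL1 (LOC_Os06g07210), the large subunit of ribonucleotide reductase, went from 10.8–13.8 to 4.18–9.25 FPKM, a change of -0.93 (SE 0.16), and the mitotic cyclin CYCB2;1 (LOC_Os04g47580) from 8.36–12.2 to 2.58–7.46, a change of -0.92 (SE 0.15). The smallest change was that of CDKA1, a kinase present throughout the cell cycle, at -0.20 in 6 of 6 pairs.

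Expansins, which loosen walls for elongation, fell in 11 of 15 with none rising. EXPA7 (LOC_Os03g60720) held 36.4, 30.4 and 29.4 FPKM in IR64 controls and 14.6, 19.4 and 18.1 under drought, and 38.6, 44.4 and 42.5 against 17.9, 18.4 and 28.2 in N22. No drought value reached a control, and the change was -0.90 (SE 0.11, adjusted p = 0.000863). EXPB6 (LOC_Os10g40700) fell by 0.93 (SE 0.13), with changes of -1.07 in IR64 and -0.79 in N22, a difference that was not called. All 9 cellulose synthases fell, 2 by 1 or more and 4 consistently and moderately. CESA8 (LOC_Os07g10770), of the primary wall, went from 172, 147 and 159 to 82.9, 73.1 and 91.4 FPKM in IR64 and from 166, 154 and 136 to 75.6, 65.3 and 92.7 in N22. CESA7 (LOC_Os10g32980), of the secondary wall, went from 65.4, 61.3 and 75.2 to 36.2, 37.02 and 37.6 in IR64 and from 94.7, 71.6 and 61.1 to 39.4, 32.5 and 44.1 in N22. Both were lower in every drought library than in any control, with changes of -0.95 (SE 0.094) and -0.89 (SE 0.10). Of 4 phenylalanine ammonia-lyases with their own row, the gateway to lignin, 3 fell, among them PAL7 (LOC_Os05g35290) at -0.70 (SE 0.11). PAL4 (LOC_Os02g41680) fell by 0.37, a call lost without any 1 of the first or second IR64 pair or the second N22 pair (adjusted p = 0.0607 to 0.0885), without the replicate block (0.0770) and with the cultivars averaged within each number (0.117).

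**Figure D4:**
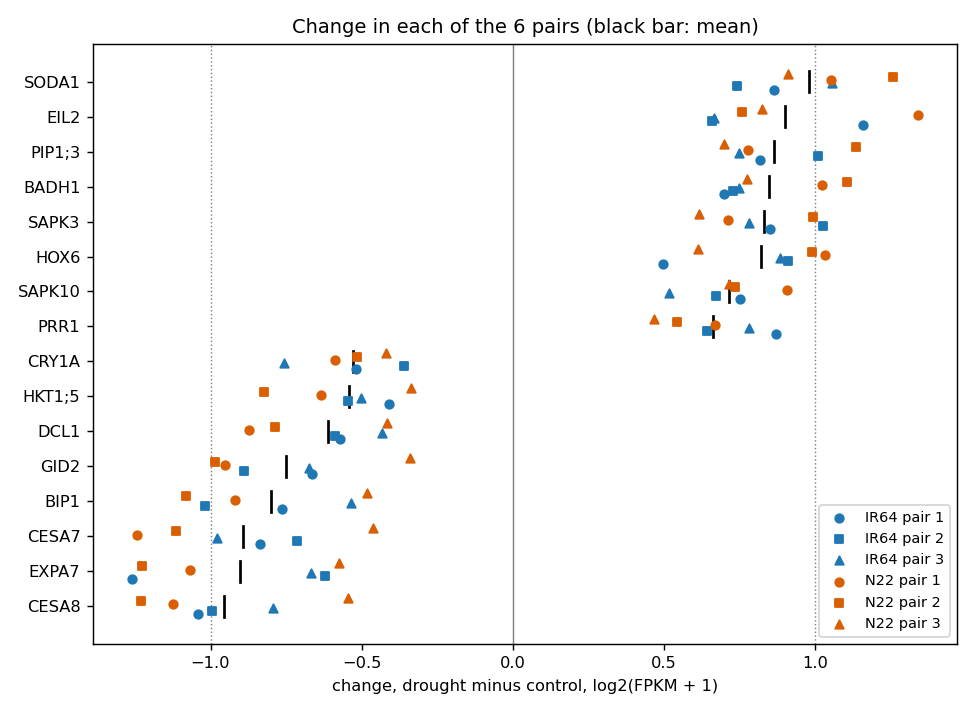
Change in each of the 6 pairs (horizontal axis, drought minus control on the log2(FPKM + 1) scale) for the 16 genes given library by library, blue for IR64 and orange for N22, with a black bar at the mean and dotted lines at -1 and 1. All 6 pairs of each gene lie on 1 side of 0, with means from -0.95 (CESA8) to 0.98 (SODA1), and single pairs of some genes pass the dotted lines.

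Water channels moved in both directions. Of 9 PIP aquaporins of the plasma membrane 2 rose and 4 fell, and of 8 TIP aquaporins of the vacuole 6 rose and 2 fell. Over all rows, 25.9% rose and 27.7% fell. PIP1;3 (LOC_Os02g57720) went from 127, 104 and 145 to 225, 210.2 and 244 FPKM in IR64 and from 116, 92.9 and 108 to 199, 205 and 176 in N22. Every drought value was above every control, with a change of 0.86 (SE 0.074, adjusted p = 0.000369). PIP1;2 rose by 0.61, and PIP2;5 (LOC_Os07g26660), a member of the other PIP subgroup, fell by 0.89 (SE 0.15). The tonoplast channels TIP1;1 (LOC_Os03g05290) and TIP2;2 (LOC_Os06g22960) were among the most abundant genes named, at 727 to 1443 and 397 to 894 FPKM in control. They rose by 0.66 (SE 0.15) and 0.60 (SE 0.092). The drought ranges of both, 973 to 2348 FPKM for TIP1;1 and 666 to 1390 FPKM for TIP2;2, overlapped those of their controls. The TIP1;1 call was lost with the cultivars averaged within each number (adjusted p = 0.0776), and under quantile scaling its change was 0.37 and still called.

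Sodium transport changed in opposite directions at 2 steps. HKT1;5 (LOC_Os01g20160), which takes sodium back from the xylem, was low, at 0.490, 0.774 and 0.908 FPKM in IR64 controls and 0.122, 0.217 and 0.347 under drought. N22 held more in both treatments, 2.25, 1.59 and 2.67 and 1.09, 0.465 and 1.90 FPKM. The fall was -0.54 (SE 0.070, adjusted p = 0.000927), and pooled over cultivars the groups overlapped. At these low levels the added 1 counts, and with a pseudocount of 0.1 the change of HKT1;5 was -1.18, beyond the moderate limit. SOS1 (LOC_Os12g44360), the sodium exporter of the plasma membrane, rose from 17.4–20.3 to 20.6–32.3 FPKM, by 0.47 (SE 0.075), and the vacuolar exchanger NHX1 by 1.099. Of the 3 root markers, RCc3 stood at 159 to 294 FPKM in control and 54.2 to 164 under drought, Lsi1 at 207 to 321 and 125 to 268, and Lsi2 at 85.9 to 121 and 72.8 to 131. Their part in these results was not tested.

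Of 9 phosphate genes, 2 rose and 2 fell, all 4 of them consistently and moderately (44.4%, against 37.5% of all rows). SQD2 (LOC_Os07g01030), which makes sulfolipid that can stand in for phospholipid, fell by 0.47 (SE 0.076), and SPX1 (LOC_Os06g40120), a sensor of phosphate status, rose by 0.43 (SE 0.12). The SPX1 call was lost without the first IR64 pair (adjusted p = 0.0566) or the second N22 pair (0.0526), and with the cultivars averaged within each number (0.0629). Of 13 genes of nitrogen uptake and assimilation, 7 were not called and none was consistent and moderate. Over all rows, 11956 of 25730 were not called and 37.5% were consistent and moderate. Cytosolic glutamine synthetase GS1;1 (LOC_Os02g50240), the most abundant, held 223 to 312 FPKM in control and 206 to 297 under drought, a change of -0.02 (SE 0.096). The plastid enzymes GS2, ferredoxin-dependent glutamate synthase and nitrite reductase fell, with changes of -1.38, -1.18 and -1.11.

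Hexokinases fell moderately, while sucrose genes moved strongly or were not consistent. Of 13 genes of sucrose metabolism and transport 5 rose and 1 fell by 1 or more, with none consistent and moderate. Sucrose synthase SUS1 (LOC_Os03g28330), the most abundant, fell from 707–920.0 to 171–452 FPKM. Hexokinases, which phosphorylate glucose and also sense it, fell moderately in 3 of 4, where 19.8% of all rows did. HXK4 (LOC_Os07g09890) fell from 1.22–2.77 to 0.421–1.76 FPKM, a change of -0.65 (SE 0.089), and HXK5 (LOC_Os05g44760) fell by 0.56 (SE 0.088). With a pseudocount of 0.1 the change of HXK4 was -1.097. BADH1 (LOC_Os04g39020), a betaine aldehyde dehydrogenase, held 25.6, 23.9 and 23.3 FPKM in IR64 controls and 42.2, 40.3 and 39.9 under drought, and 27.4, 25.8 and 26.1 against 56.7, 56.6 and 45.4 in N22. The 6 drought values lay above all controls, with a rise of 0.85 (SE 0.071, adjusted p = 0.000358), whereas its paralogue BADH2, at 0.07, was not called. TPS1 (LOC_Os05g44210), a trehalose-6-phosphate synthase, fell by 0.54 (SE 0.096). In proline synthesis P5CS1 and P5CS2, which carry out the first step, rose by 1.36 and 1.65, while P5CR, of the last step, fell by 0.27 in 6 of 6 pairs.

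Antioxidant enzymes moved in both directions, 7 of 17 rising and 4 falling, and 8 of the 17 were consistent and moderate (47.1%, against 37.5% of all rows). SODA1 (LOC_Os05g25850), the manganese superoxide dismutase of mitochondria, went from 134, 114 and 118 to 244, 192 and 246 FPKM in IR64 and from 83.1, 71.0 and 75.7 to 174, 171 and 143 in N22. All drought values were above all controls, each pair rose by 0.74 to 1.26, and the mean of 0.98 (SE 0.076, adjusted p = 0.000305) lay just inside the 2-fold limit. GR2 (LOC_Os02g56850), a glutathione reductase, rose by 0.93 (SE 0.13), and APX1 and DHAR1, of the ascorbate cycle, by 0.49 and 0.42. The falls were CATC, a catalase, at -0.88 and the ascorbate peroxidases APX4, APX8 and APX5, between -0.55 and -0.39.

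Chaperones of the endoplasmic reticulum fell while heat shock factors rose. The falls were calreticulin (CRT, LOC_Os07g14270), BIP1 and calnexin. BIP1 (LOC_Os02g02410), the chaperone of that compartment, held 207, 164 and 157 FPKM in IR64 controls and 122, 80.5 and 108 under drought, and 175, 159 and 165 against 92.04, 74.7 and 117 in N22. The groups did not overlap, with a change of -0.80 (SE 0.095, adjusted p = 0.000748). CRT fell from 286–369 to 109.7–220.5 FPKM, a change of -0.92 (SE 0.14), and calnexin fell by 0.61. IRE1, the sensor of unfolded proteins in the same compartment, rose by 0.58, and the folding enzyme PDIL1-1, at 0.13, was not called. Heat shock factors and HSP101 rose in 8 of 9 with none falling, 5 by 1 or more. HSFB1 (LOC_Os09g28354) rose by 0.43 (SE 0.081) and HSFA1 (LOC_Os03g63750) by 0.24 (SE 0.072, adjusted p = 0.0234). HSFA1 lost its call without the first or second IR64 pair or the second N22 pair (adjusted p = 0.0588 to 0.0725), under quantile scaling (0.0867) and with the cultivars averaged within each number (0.122).

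Autophagy genes, which build the vesicles that recycle cell contents, rose in 5 of 7, with 4 moderate rises and none falling. Over all rows, 25.9% rose and 17.7% had a consistent moderate rise. ATG8A (LOC_Os07g32800), the ubiquitin-like protein that coats the vesicle, went from 250.5–273 to 366–702 FPKM, a rise of 0.92 (SE 0.12). Its paralogue ATG8C (LOC_Os08g09240) rose by 0.48 (SE 0.068), and ATG8B and ATG4B by 0.42 and 0.46.

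Of 20 small RNA and DNA methylation genes, 11 had a consistent moderate change (55.0%, against 37.5% of all rows) and 1 fell by 1 or more. The share over all rows depends on level, with 40.4% at 5 to 20 FPKM and 48.0% at 20 to 100, and the difference was not tested. DCL1 (LOC_Os03g02970), which cuts microRNA precursors, went from 15.2, 16.9 and 16.05 to 9.91, 10.9 and 11.6 FPKM in IR64 and from 17.1, 16.6 and 15.2 to 8.88, 9.20 and 11.1 in N22. It was lower in every drought library than in any control, with a change of -0.61 (SE 0.078, adjusted p = 0.000899). AGO18 (LOC_Os07g28850), an Argonaute found in grasses, fell from 3.50–4.95 to 1.48–2.69 FPKM, a change of -0.69 (SE 0.10). Rises were seen for AGO1B, RDR6, AGO4A, RDR2 and AGO1C, between 0.22 and 0.49. Within 1 Argonaute group, AGO1A fell by 0.24 while AGO1B rose by 0.49, and AGO1D, at -0.04, was not called.

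Genes often used to normalise quantitative PCR were not uniform. Among them UBQ10 rose by 1.32, ACT1 fell by 1.05, and EIF5C, at -0.08, was not called. EIF4A (LOC_Os06g48750) went from 158–196 to 174–216 FPKM and passed with a mean change of 0.18 (SE 0.058, adjusted p = 0.0308). That call was lost under quantile scaling (adjusted p = 0.0642) and without any 1 of 5 of the 6 pairs (0.0507 to 0.0799), without the replicate block (0.0582) and with the cultivars averaged within each number (0.180).

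Among rows with a consistent moderate change but no gene name in the lists, the rises of smallest limma p were LOC_Os08g22389 and LOC_Os01g06590 and the falls LOC_Os01g11270 and LOC_Os02g05744. LOC_Os08g22389 was near the floor in control, at 0.0988 to 0.148 FPKM, and reached 0.877 to 1.34 under drought, a change of 0.93 (SE 0.054) that is small on this scale because of the added 1. LOC_Os01g06590 rose from 19.2–31.3 to 31.1–58.2 FPKM, with pair changes of 0.67 to 0.92. Its groups overlapped in 1 place, the highest control being IR64 library 3 and the lowest drought value N22 library 3. LOC_Os01g11270 was low too, at 1.22 to 1.99 FPKM in control and 0.248 to 0.513 under drought, and fell by 0.87 (SE 0.066). With a pseudocount of 0.1 the changes were 2.51 for LOC_Os08g22389 and -1.80 for LOC_Os01g11270, beyond the moderate limit. LOC_Os02g05744 fell from 10.6–15.6 to 4.98–7.12 FPKM, a change of -0.95 (SE 0.074). Its mean FPKM, 12.8 in control and 6.14 under drought, differed by more than 2-fold on the linear scale.

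The limit of 1 divides genes that differ little. SODA1 at 0.98 lies just under it and ATG7, an activating enzyme of autophagy, at 1.01 just over it. Among falls, chloroplast triosephosphate isomerase at -0.99 lies just under and the transketolase TKL1, of the same cycle, at -1.03 just over. The pairs of ATG7 ranged from 0.15 to 1.71, a wider spread than in SODA1.

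No moderate change was shown to differ between the cultivars. Of the 9648 rows, 5526 were also called from the pairs of at least 1 cultivar alone, 1196 rises and 1421 falls in both. The remaining 4122 (2019 higher, 2103 lower) were called in neither alone and only from the 6 pairs together. Over all 25730 rows, the IR64 pairs alone called 6944 and the N22 pairs alone 6482. The same pairs had entered the choice of the 9648 rows, so the shared calls are no separate support. With the rule for moderate rows loosened to all pairs of 1 cultivar one way, the IR64 pairs alone gave 2236 moderate rises and 2762 falls. The N22 pairs gave 1866 and 2082. The size of the mean change was larger in N22 for 6215 of the 9648 rows, a count that was not made over all rows. Over all rows, the median size of change was 0.36, 0.38 and 0.2 in the N22 pairs 1 to 3. In the IR64 pairs it was 0.30, 0.32 and 0.23. A limma interaction test of the difference between the cultivars called 1 of 25730 rows (0.00389%), LOC_Os03g50490, which has no consistent moderate change. None of the 9648 moderate rows passed it. Before adjustment 1673 rows had a p below 0.05, 441 of them among the moderate rows, and with array weights 37 rows were called.

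**Figure D5:**
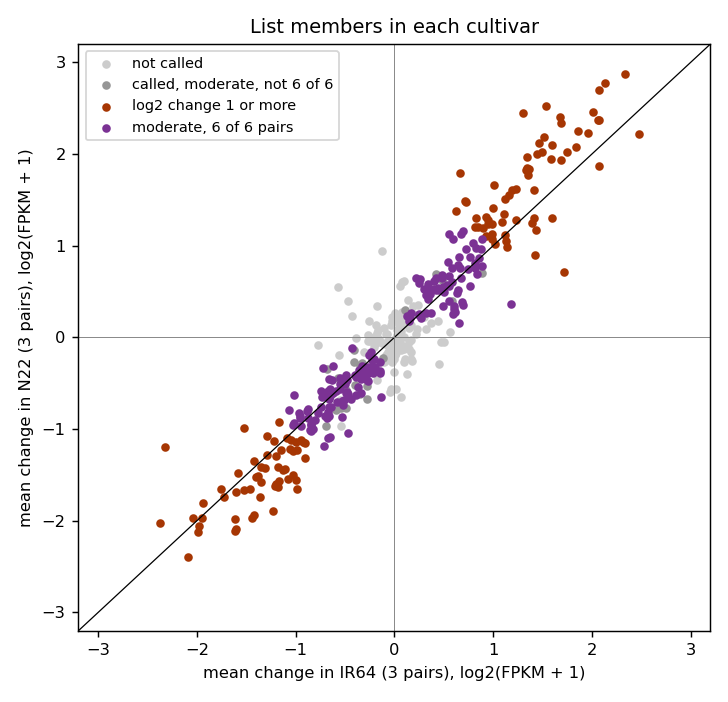
Mean change of the list members on the log2(FPKM + 1) scale in IR64 (horizontal) and N22 (vertical), 3 pairs each, with the line of equal change. Of the 419 tested members, 403 are drawn and 16 lie outside the axes. Members with a consistent moderate change (purple) lie to the lower left and upper right, as the rule requires, and ACO1 lies farthest to the right among them.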

How the data were processed

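RNA sequencing libraries of rice seedlings, 12 in all, were grouped by the submitters' labels. The deposited values are FPKM that the authors estimated with Cufflinks 2.2.1 from TopHat 2.1.1 alignments to the RGAP 7.0 genome, per the series design text, which calls the replicates biological. It names missForest for filling missing values, and whether the deposited FPKM hold filled ones is not given in the sources used here. No read counts were used and depth is unknown.

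Rows listed in all 12 libraries were fitted as log2(FPKM + 1) with limma 3.58.1 (trend, 6 pairs as blocks, R 4.3.3), with Benjamini-Hochberg adjustment over 25730 rows. Numbers come from the labels: same-numbered drought and control libraries deviated together in 6 of 6 cases (r 0.134 to 0.425), others in 0 of 12, and same-numbered libraries of the 2 cultivars correlated too (r 0.171 to 0.628). Deviations within a group sum to 0, so positive values for the same number pull the others down. The 0 of 12 is therefore no separate support for the pairing. Replicates correlated at 0.965 to 0.992.

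The comparison, its limit and all lists were chosen with earlier results of these data known, and 240 of 476 symbol and locus pairs were written after the file heads had been seen. Pairs come from knowledge of rice nomenclature. Of the symbols, 328 were in a RefSeq gene table of another assembly (ASM3414082v1), and 10 pairs were dropped because chromosome (7) or order (3) contradicted it. The symbols of 130 tested members could not be checked. The named genes were, per list, the 2 largest consistent moderate changes, or the most abundant member. Library by library values are given for the 8 rises and 8 falls of smallest p among the consistent moderate ones. Tables were handled with pandas 2.3.3 and plots drawn with matplotlib 3.10.9 in Python 3.11.15. One reference gene of the lists is not reported here.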

Additional observations from a re-analysis of the deposited data

Results flagged for a closer look

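NOL, a chlorophyll b reductase, had 1 pair apart from the rest. The second N22 pair rose by 1.30 on the log2(FPKM + 1) scale, against 0.53 to 0.76 in the other 5 pairs. Of 76 named genes examined this way 1 was flagged, while chance flags about 1 in 20.

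LOC_Os03g50490 differed between the cultivars by the interaction test. It stood at 0.996, 0.549 and 0.713 FPKM in IR64 controls and 0.752, 0.537 and 1.01 under drought. In N22 it went from 1.13, 1.09 and 0.529 to 83.4, 101 and 35.3 FPKM. The change was 5.15 larger in N22 (limma adjusted p = 0.0219), and over all 6 pairs the row was not called (adjusted p = 0.0518).

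Rows missing from some libraries were left out of the tests, and 19 of them were listed in all 6 drought libraries and in no control. The reverse held for 4 rows, the highest of them at a mean of 0.303 FPKM. Only 1 of the 19 was at or above 1 FPKM in all 6 drought libraries, the LEA gene EM1 (LOC_Os05g28210), at 1.31 to 74.4 FPKM.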

How the results depend on the processing

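The counts of rises and falls stayed within 1.5 times with a pseudocount of 0.1, a minimum mean of 1 FPKM, no trend, quantile or median-of-ratios scaling, array weights, rows of one name summed and either other block. Without the replicate block 6336 rows rose and 6652 fell, with 4311 and 4764 moderate, and the pairing changed the calls of EIF4A (adjusted p = 0.0582 without it) and PAL4 (0.0770). Leaving out 1 pair gave 5505 to 6599 rises and 5978 to 7198 falls, of which 4055 to 4896 and 4674 to 5622 were moderate. IR64 pairs alone gave 3211 rises and 3733 falls (2236 and 2762 moderate), N22 pairs alone 3297 and 3185 (1866 and 2082), where fewer pairs enter. Cultivars averaged per number, an alternative chosen after seeing the data, gave 4169 and 4629, with 2984 moderate rises. The interaction count of 1 became 37 with array weights, 11 without the replicate block, 11 with a block by number alone, 0 with pairs 1 and 2, and 0 to 7 leaving out 1 pair; the cause was not tested. No named gene that was called reversed under these settings, whereas the uncalled ABA8ox1 (-0.12 to 0.58) and GS1;1 (-0.12 to 0.080) took both signs; 9 lost their call with cultivars averaged per number, 17 with IR64 pairs alone and 19 with N22 pairs alone. Depth is unknown, so the precision of low values cannot be given.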

Other observations

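Fermentation, the shortest list, had 2 genes with a row of their own. The pyruvate decarboxylase gene PDC2 rose by 1.45 on the log2(FPKM + 1) scale, and PDC1, at -0.01, was not called.

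Consistent moderate changes were found in 38% of 23147 rows naming 1 locus, in 40% of 1248 rows naming several and in 27% of 1316 rows of transcripts with no locus name.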
